A study of Sus scrofa with 16 samples.

Results

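The genes for integrins and for the proteins that tie them to actin at focal adhesions were followed in the pituitary of pigs that differed in feed conversion. Members were taken by gene symbol and count, and this set of genes was chosen with earlier results of these data known. They were the genes whose deposited symbol was that of an integrin subunit or integrin-binding protein, a talin, tensin, parvin, kindlin, PINCH protein, alpha-actinin or filamin, or was VCL, PXN, BCAR1, PTK2, ILK, ZYX, SRC or VASP. Each also needed at least 10 counts in 8 or more pigs. All 41 genes with such a symbol met the count minimum, of 25880 genes in the deposited table, and all 41 passed the expression filter of the test, which kept 13621 genes. In 37 of the 41, every pig had at least 10 counts.

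Whole pituitaries came from 16 female Złotnicka White pigs (Zlotnicka white in the labels), a native breed, with the day given as 180 for every pig. The pigs were unrelated, came from different farms, and were fed and housed alike at a test station until they reached slaughter weight. In 8 pigs feed conversion was low (LFC) and in 8 it was high (HFC), and the groups were formed on this trait, not by a treatment. The deposited labels hold this class, as low or high FCR, in a field named shear force, and it was read here as the feed conversion class. The paper reports that HFC pigs of this breed also gained weight more slowly and spent more days in the test. They also had thicker fat at several points, and these traits cannot be told apart from feed conversion here. Ages varied in the paper, so the labelled day of 180 is not each pig's exact age. Short single reads were sequenced from RNA libraries that did not keep the strand.

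Integrins are receptors of an alpha and a beta subunit that hold cells to the proteins of the matrix, such as collagens, laminins and fibronectin. Talin and kindlin bind the tail of the beta subunit and switch the receptor on, the complex of ILK, PINCH and parvin, together with vinculin, alpha-actinin, filamin and tensin, joins it to actin, and paxillin, BCAR1 (p130Cas), focal adhesion kinase and SRC pass the signal on. In the anterior pituitary, hormone-producing cells and folliculostellate cells lie against basement membranes that surround a dense net of capillaries. Leukocytes and platelets carry integrins of their own, so a homogenate of the whole gland holds the integrins of several cell types.

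The gene counts summed to 6010629 in the shallowest library and 11794256 in the deepest, and the group medians were 7803047 (LFC) and 9027332 (HFC). The share of these counts that fell on the members was 0.186% ± 0.0311 (SD, n = 8) for LFC and 0.210% ± 0.0349 (SD, n = 8) for HFC pigs. Of 15 markers of hormone-producing cells 12 were matched by name, and together they took between 93623 and 227809 CPM (counts scaled to library size after TMM normalization) in each pig. Markers of striated muscle were near 0, with a sum between 5.01 and 11.6 CPM, and MYL1 was at 0 in every pig. In 3 libraries, LFC 4, LFC 6 and HFC 5, genes with a long span in the genome had fewer counts relative to short genes than in the other 13, and results are also given without these 3 pigs.

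The study required an adjusted p within 0.05 together with a change of 1.3-fold or more, in DESeq2. Its list for this breed held BCAR1, ITGA3, ITGA6, ITGAE, TLN1, VCL and ACTN4, under integrin signalling. At the same thresholds in edgeR, 0 of the 41 members and 0.0% of the 13621 genes tested were called here. The smallest adjusted p of a member was 0.372 (edgeR, quasi-likelihood test, Benjamini-Hochberg adjustment). DESeq2 as run here called 1 member, BCAR1, among 30 genes of the 14549 to which it gave an adjusted p, or 0.206%. Why fewer genes were called here than in the study was not tested. Limma voom called 0 members. At the nominal level, which is p of 0.05 or less in edgeR before adjustment, 7 members (17.1%) were higher in the HFC group, against 7.03% of all genes tested, and 0 members were higher in the LFC group, against 4.41% of all genes. The 7 were BCAR1, PXN, TNS2 and the integrin alpha subunits ITGA3, ITGA5, ITGA6 and ITGAV. The log2 fold change, HFC over LFC, was above 0 in 32 members (78.0%), against 47.9% of all genes. Its median was 0.13 over the members and -0.01 over all genes, and no test was made on the list. The groups overlapped in all 41 members, and they did not overlap in 0.00734% of all genes tested. In whole glands, more cells of a type and more RNA per cell cannot be told apart, and this holds for every difference given here.

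**Figure D1:**
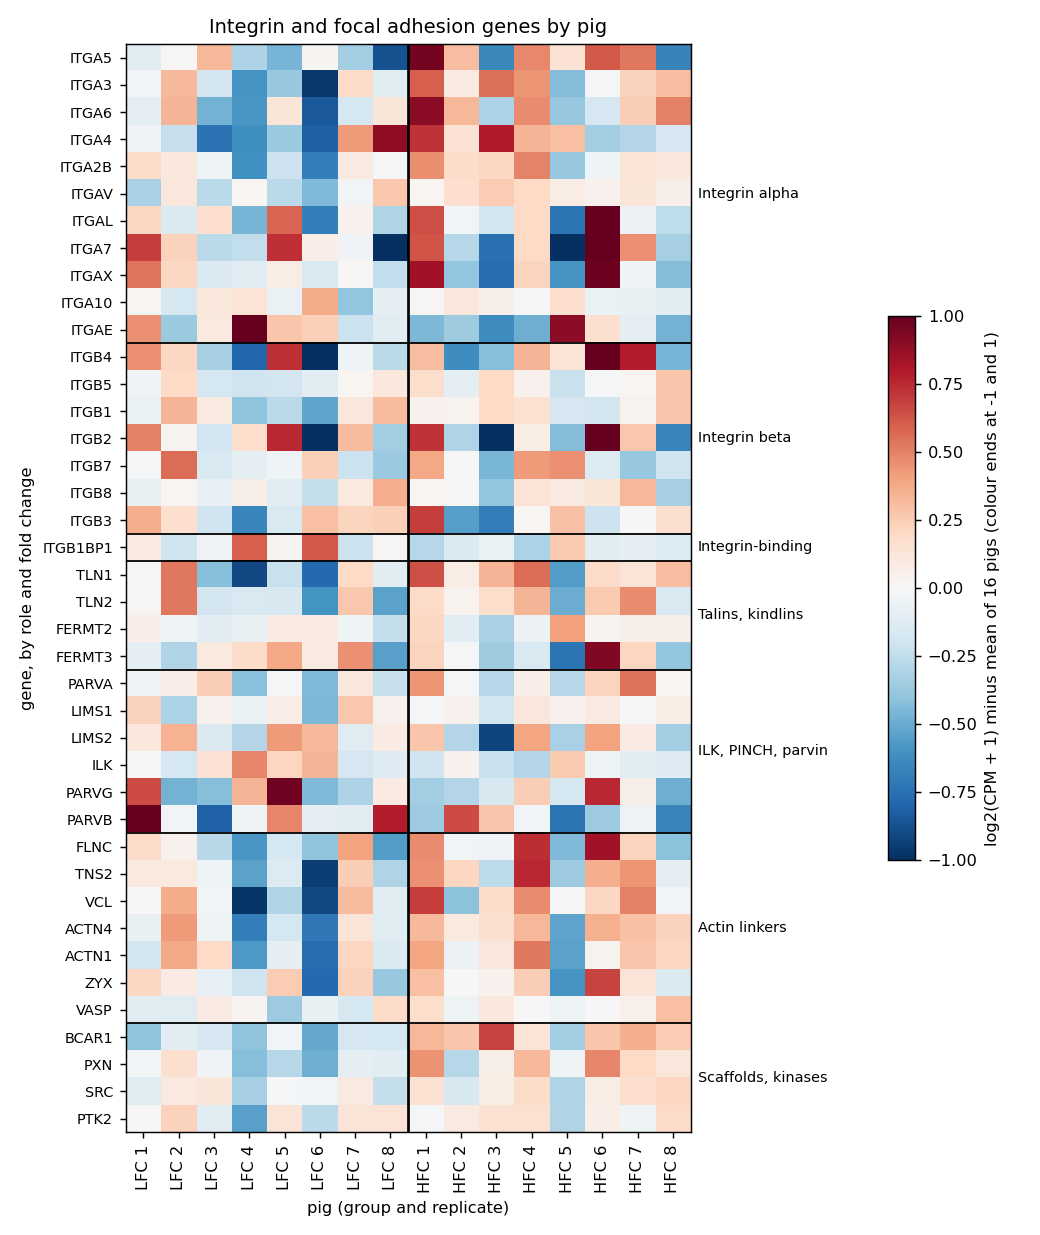
Expression of 40 of the 41 genes (rows, ordered by role and by fold change) in each of the 16 pigs (columns), as log2(CPM + 1) minus the gene's mean over the pigs, with red above and blue below that mean. Most actin linkers and scaffolds are blue in LFC 4, LFC 6 and HFC 5 and red in HFC 1, while ILK, ITGB1BP1 and ITGAE are red in those 3 pigs.

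The count of 7 moved with single pigs. It was 3 without HFC 1, without HFC 4 or without HFC 7. The share of all genes tested at this level and higher in the HFC group was then 4.87%, 4.53% and 6.01%. The count was 4 without LFC 4, LFC 5 or LFC 6, where that share was 4.99%, 5.98% and 5.37%. It was 11 without LFC 2 or without HFC 5, where the share was 9.69% and 13.8%. BCAR1 and PXN stayed at the nominal level whichever pig was left out, and ITGA3 lost it only without HFC 1. Without LFC 4, LFC 6 and HFC 5 together, 5 members were at the nominal level and higher in the HFC group, against 7.69% of the 13732 genes then tested, and 1 (ITGAE) was higher in the LFC group, against 6.66%. Of the 7, BCAR1, PXN and ITGA3 were among these 5, together with ITGA2B and ACTN4, while TNS2, ITGA5, ITGAV and ITGA6 had unadjusted p-values of 0.0564, 0.0663, 0.0691 and 0.0805 (edgeR). The median of the members was 0.15.

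**Figure D2:**
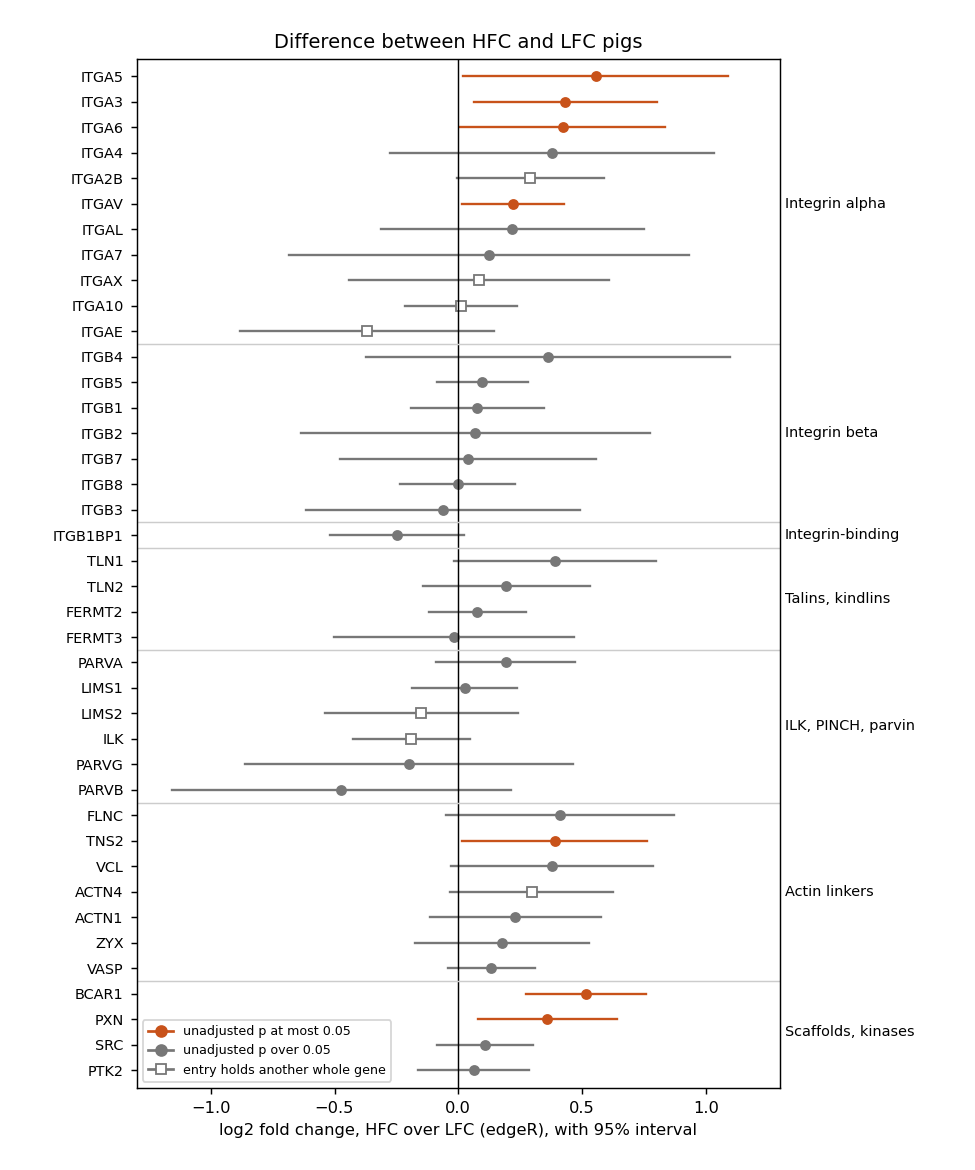
Log2 fold change of 40 of the 41 members, HFC over LFC, with its 95% interval from edgeR, grouped by role, where orange marks p of 0.05 or less before adjustment and open squares mark members whose annotation entry holds another whole gene. All 7 actin linkers drawn and all 4 scaffolds and kinases lie above 0 (PTK2 at -0.045 with a correction for gene span), while 4 of the 6 genes of the ILK, PINCH and parvin group lie below it.

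Alpha subunits decide which matrix protein an integrin binds. Of 11 measured, 10 were higher and 1 lower in the HFC group, against 47.9% of all genes tested that were higher. Of the higher, 4 reached the nominal level, against 7.03% of all genes tested, and the median log2 fold change was 0.22. Over the 28 alternatives 8 to 10 were higher, with ITGAX below 0 in 6 of them, ITGA10 in 2 and ITGA7 in 1. ITGA3 (chr12:26235324-26271561) and ITGA6 (chr15:78504312-78589645) encode subunits of laminin receptors. ITGA3 ranged from 13.9 to 35.4 CPM in the LFC group with a median of 25.2, and from 20.5 to 42.8 CPM in the HFC group with a median of 34.1. Its log2 fold change was 0.43 ± 0.18 (SE), with an unadjusted p of 0.0236 (edgeR) and an exact permutation p of 0.0388. The lowest pigs were LFC 6 and LFC 4, then HFC 5, and the groups overlapped over most of their range. ITGA6 ranged from 16.3 to 38.1 CPM with a median of 27.1 in the LFC group, and from 22.7 to 56.8 CPM with a median of 36.8 in the HFC group. The difference was 0.42 ± 0.20 (SE) on the log2 scale, with an unadjusted p of 0.0459 (edgeR) and an exact permutation p of 0.0836. HFC 1 was far above the other pigs, and 5 of 8 HFC pigs lay above the LFC median.

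ITGAV (chr15:91604661-91711841) encodes the alpha subunit of vitronectin receptors, and ITGA5 (chr5:19583451-19611209) that of the fibronectin receptor. ITGAV was spread from 25.2 to 41.9 CPM with a median of 31.3 in the LFC group, and from 35.1 to 41.4 CPM with a median of 37.0 in the HFC group. All 8 HFC pigs were above the LFC median, yet LFC 8 was the highest of the 16 pigs. The log2 fold change of ITGAV was 0.22 ± 0.10 (SE), with an unadjusted p of 0.0373 (edgeR) and an exact permutation p of 0.0274. ITGA5 lay between 3.39 and 9.10 CPM in the LFC group with a median of 5.96, and between 4.06 and 14.6 CPM in the HFC group with a median of 9.56. The HFC pigs were split, since HFC 8 and HFC 3 were at 4.06 and 4.14 CPM, below most LFC pigs, and the other 6 were above the LFC median. Its log2 fold change was 0.55 ± 0.25 (SE), with an unadjusted p of 0.0424 (edgeR) and an exact permutation p of 0.0999.

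ITGA2B, the alpha subunit of the fibrinogen receptor of platelets, ranged from 38.4 to 70.6 CPM (median 60.6) in the LFC group and from 47.5 to 88.1 CPM (median 69.5) in the HFC group, which is 0.29 ± 0.14 higher on the log2 scale (SE, unadjusted p = 0.0528, edgeR). Its annotation entry also holds another gene, GPATCH8, and the reference table gives the entry that name. These counts, and every result given here for ITGA2B, may thus be largely those of another gene. ITGAE, the subunit of an integrin of lymphocytes in epithelia, was the alpha subunit with a lower mean in the HFC group, 11.3 ± 5.25 CPM (SD, n = 8), against 14.4 ± 5.29 CPM (SD, n = 8) for LFC. The difference of -0.37 on the log2 scale was -0.185 without LFC 4 and -0.56 without HFC 5. The log2 fold changes of the others were 0.38 for ITGA4, 0.22 for ITGAL, 0.12 for ITGA7, 0.08 for ITGAX and 0.01 for ITGA10. At the nominal level were 0 of the 5, against 7.03% of all genes tested higher and 4.41% lower in the HFC group.

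**Figure D3:**
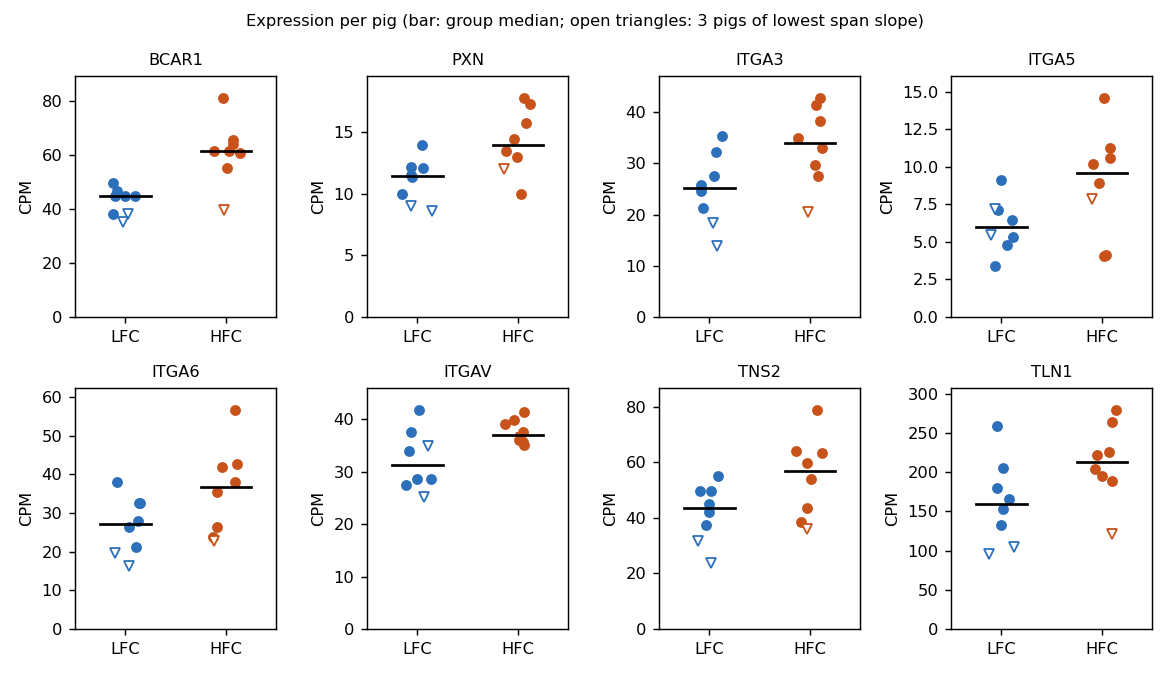
CPM of each pig for the 7 members at the nominal level and for TLN1, with a bar at the group median and open triangles for LFC 4, LFC 6 and HFC 5. In BCAR1 the 7 other HFC pigs lie above every LFC pig, while in the other genes the groups overlap more widely.

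Beta subunits carry the tails to which the adhesion proteins bind. Of 7 measured, 5 were higher in the HFC group and 2, ITGB8 and ITGB3, lower, against 47.9% of all genes tested that were higher. Over the 28 alternatives 3 to 7 were higher. The sign turned under 15 alternatives for ITGB8, 7 for ITGB7, 6 for ITGB2, 4 for ITGB3 and 1 for ITGB1, and ITGB2 was at -0.15 with limma voom and at -0.08 with the replicate block. None of them, 0 of 7, reached the nominal level, against 7.03% of all genes tested higher and 4.41% lower in the HFC group. The median log2 fold change was 0.07. ITGB1, the common partner of many alpha subunits, ranged from 193.8 to 354.9 CPM (median 283.0) in the LFC group and from 246.7 to 340.5 CPM (median 288.2) in the HFC group. The HFC range lay within the LFC range, and the log2 fold change was 0.08 with a 95% interval from -0.19 to 0.35 (edgeR). It was -0.01 without the 3 pigs LFC 4, LFC 6 and HFC 5. ITGB4, the partner of ITGA6 in hemidesmosomes, had the largest log2 fold change of this group, 0.36 ± 0.35 (SE), and ranged from 1.20 to 7.05 CPM (median 3.37) and from 2.15 to 9.59 CPM (median 4.67) in the LFC and HFC pigs. That fold change was 0.15 without HFC 6 alone, 0.15 with limma voom and 0.56 without LFC 5. ITGB5, ITGB2, ITGB7, ITGB8 and ITGB3 had log2 fold changes between -0.06 and 0.10. Whether alpha and beta subunits differed in their change was not tested.

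ITGB1BP1 (chr3:126905810-126922045) encodes ICAP-1, a protein that binds the tail of the beta 1 subunit and competes there with talin. It ranged from 41.0 to 73.3 CPM with a median of 48.2 in the LFC group, and from 38.0 to 57.3 CPM with a median of 43.7 in the HFC group. LFC 6, LFC 4 and HFC 5 were the 3 highest pigs. The groups differed by -0.25 ± 0.13 (SE) on the log2 scale, with an unadjusted p of 0.0694 (edgeR) and an exact permutation p of 0.121. The difference was -0.15 without LFC 6, -0.16 without LFC 4 and -0.11 without all 3 pigs.

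Of the 4 talins and kindlins, 3 were higher in the HFC group and 1, FERMT3, lower, which was above 0 under 16 of the 28 alternatives. At the nominal level there were 0 of the 4, against 7.03% of all genes tested higher and 4.41% lower in the HFC group. The median log2 fold change was 0.14. TLN1 (chr1:236414815-236450945), the widely expressed talin, ranged from 95.1 to 258.7 CPM (median 159.8) in the LFC group and from 120.8 to 279.9 CPM (median 212.9) in the HFC group. LFC 4, LFC 6 and HFC 5 were the lowest, and 7 of 8 HFC pigs were above the LFC median. Its log2 fold change was 0.39 ± 0.19 (SE), with an unadjusted p of 0.0584 (edgeR) and an exact permutation p of 0.0734. TLN2, the talin of muscle and brain, differed by 0.19 on the log2 scale, and the kindlins FERMT2 and FERMT3, the latter that of blood cells, by 0.08 and -0.02.

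ILK, a pseudokinase, forms a complex with a PINCH protein (LIMS1 or LIMS2) and a parvin (PARVA, PARVB or PARVG) at the beta tail. Its median was below 0, at -0.17, with 2 of its 6 genes higher and 4 lower in the HFC group, against 47.9% of all genes tested that were higher. At the nominal level were 0 of the 6, against 7.03% of all genes tested higher and 4.41% lower. Over the 28 alternatives that median lay between -0.21 and -0.03. ILK (chr9:3144165-3159868) ranged from 163.2 to 259.7 CPM (median 194.2) in the LFC group and from 150.5 to 221.0 CPM (median 169.3) in the HFC group. The highest pigs were LFC 4, LFC 6 and HFC 5, and 7 of the 8 HFC pigs were at or below the LFC median. The log2 fold change was -0.19 ± 0.11 (SE, unadjusted p = 0.108, edgeR), and its entry also holds TAF10. It was -0.11 without LFC 4 and -0.12 without LFC 4, LFC 6 and HFC 5. PARVB had the largest difference, -0.47 ± 0.33 (SE, unadjusted p = 0.164, edgeR), at 1.37 to 7.83 CPM (median 3.06) in the LFC group and 1.503 to 5.53 CPM (median 2.62) in the HFC group. PARVB was thus low in each pig, and LFC 1 and LFC 8 held the highest values. Without LFC 1 its difference was -0.26. PARVG and LIMS2 had log2 fold changes of -0.20 and -0.15, LIMS1 of 0.03 and PARVA, the widely expressed parvin, of 0.19, where PARVG was above 0 without LFC 5 and LIMS1 below 0 under 6 alternatives.

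All 8 actin linkers and crosslinkers were higher in the HFC group, against 47.9% of all genes tested. Of them 1 was at the nominal level, against 7.03% of all genes tested, and the median log2 fold change was 0.28. All 8 were also higher under each of the 28 alternatives, where the median lay between 0.21 and 0.37, although every alternative uses largely the same pigs. TNS2 (chr5:18306453-18320270), a tensin that joins beta tails to actin, ranged from 23.6 to 55.1 CPM with a median of 43.5 in the LFC group, and from 35.9 to 79.0 CPM with a median of 57.0 in the HFC group. LFC 6, LFC 4 and HFC 5 were again the lowest, and no LFC pig reached the HFC median. HFC exceeded LFC by 0.39 ± 0.18 (SE) on the log2 scale, with an unadjusted p of 0.0415 (edgeR) and an exact permutation p of 0.0727.

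FLNC, a filamin of muscle that crosslinks actin, had the largest difference of the actin linkers, 0.41 ± 0.22 (SE, unadjusted p = 0.0771, edgeR), at 6.39 to 13.6 CPM (median 8.46) in the LFC group and 7.14 to 18.9 CPM (median 10.9) in the HFC group. ACTN4, an alpha-actinin of non-muscle cells, ranged from 89.7 to 199.8 CPM (median 138.6) in the LFC group and from 102.4 to 190.2 CPM (median 177.9) in the HFC group. Its log2 fold change was 0.30 ± 0.16 (SE), with an unadjusted p of 0.0736 (edgeR), and LFC 2, not an HFC pig, was the highest. The entry of ACTN4 also holds MAP4K1 and EIF3K. VCL (vinculin, which binds talin and actin), ACTN1, ZYX (zyxin) and VASP, a factor of actin growth, had log2 fold changes of 0.38, 0.23, 0.18 and 0.13, with unadjusted p-values between 0.0666 and 0.305 (edgeR).

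All 4 scaffolds and kinases were higher in the HFC group, against 47.9% of all genes tested, except that PTK2 turned to -0.045 with a correction for gene span. Of the 4, 2 reached the nominal level, against 7.03% of all genes tested that did so and were higher in the HFC group, and the median log2 fold change was 0.23. BCAR1 (chr6:12369733-12404809), the docking protein that focal adhesion kinase and SRC phosphorylate, had the smallest p of all members. It ranged from 35.1 to 49.6 CPM with a median of 44.8 in the LFC group, and from 39.5 to 81.2 CPM with a median of 61.5 in the HFC group. HFC 5 lay among the LFC pigs, and the other 7 HFC pigs, from 55.3 CPM upward, were above every LFC pig. The log2 fold change was 0.52 ± 0.12 (SE) with a 95% interval from 0.27 to 0.76 and an unadjusted p of 0.000274 in edgeR's test, the 7th smallest of all genes. The exact permutation p was 0.00155, where 0.000155 is the smallest that 12870 splits can give. The adjusted p was 0.0224 in DESeq2 and 0.372 in edgeR (quasi-likelihood test, Benjamini-Hochberg adjustment). Without LFC 4, LFC 6 and HFC 5 the log2 fold change remained 0.52, with an unadjusted p of 2.07e-05.

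PXN encodes paxillin, which binds vinculin, parvins and focal adhesion kinase. It ranged from 8.56 to 14.0 CPM with a median of 11.4 in the LFC group, and from 9.99 to 17.8 CPM with a median of 13.9 in the HFC group, and 7 of 8 HFC pigs were above the LFC median. Its log2 fold change was 0.36 ± 0.13 (SE), with an unadjusted p of 0.0149 (edgeR) and an exact permutation p of 0.0183. The annotation entry that was counted, chr14:40229755-40239952, covers only a stretch of the RefSeq gene, chr14:40227894-40278785. PTK2, focal adhesion kinase itself, ranged from 55.4 to 95.4 CPM (median 85.0) in the LFC group and from 65.6 to 92.7 CPM (median 85.6) in the HFC group. The medians of PTK2 were nearly equal, and its log2 fold change was 0.06 with a 95% interval from -0.16 to 0.29. SRC, the tyrosine kinase that binds it, had a log2 fold change of 0.11 with an interval from -0.09 to 0.30.

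Many members moved together from pig to pig, and with the balance of long and short genes in a library. For each pig, the slope of expression on gene span was taken over 10890 genes, as the change of log2(CPM + 1), centred on each gene's mean, per log2 of the span in bp. Slopes averaged -0.0168 ± 0.0445 (SD, n = 8) for LFC and 0.0168 ± 0.0377 (SD, n = 8) for HFC, a difference of 0.0336 with an exact permutation p of 0.125. LFC 6, LFC 4 and HFC 5 stood apart at -0.0826, -0.0813 and -0.0643, and the other 13 pigs lay between -0.0200 and 0.0640. The members had a median span of 44663 bp, against 29627 bp over all tested genes with a known span. Slopes and member levels come from the same libraries, and the members are among the genes behind the slope.

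Since 3 pigs stood apart, correlations of members with this slope were computed in all 16 pigs and in the other 13. With permutation p-values adjusted over all 13621 genes tested, 20 members (48.8%) were positively and 4 (9.76%) negatively correlated with the slope at an adjusted p of at most 0.05 in 16 pigs, against 21.7% and 21.3% of all genes. In the 13 pigs 4 (9.76%) and 3 (7.32%) were, against 5.2% and 5.4% of all genes. TLN1 had a Pearson r of 0.964 and a Spearman rho of 0.962 in 16 pigs (permutation p = 1e-05 for each, the smallest that 100000 resamples give, adjusted p = 0.000135 and 0.000239). Within the groups of 8, r of TLN1 was 0.955 in the LFC group and 0.967 in the HFC group, in the 13 pigs it was 0.915, and it was 0.931 without the 2 pigs farthest from the median slope. ITGA3 had an r of 0.951 and a rho of 0.974 in 16 pigs (permutation p = 1e-05 for each, adjusted p = 0.000135 and 0.000239), and an r of 0.930 in the 13 pigs. Its r was 0.947 within the LFC pigs, 0.955 within the HFC pigs and 0.923 without 2 pigs, so that both genes followed the slope within each group nearly as closely as across the groups.

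ILK and ITGB1BP1 ran the other way. ILK had an r of -0.943 and a rho of -0.956 in 16 pigs (permutation p = 1e-05 for each, adjusted p = 0.000135 and 0.000239) and an r of -0.860 in the 13 pigs, with -0.960 and -0.894 within the LFC and HFC pigs and -0.896 without 2 pigs. ITGB1BP1 had an r of -0.941 and a rho of -0.900 in 16 pigs (permutation p = 1e-05 and 3e-05, adjusted p = 0.000135 and 0.000468) and an r of -0.794 in the 13 pigs, with -0.959 and -0.924 within the groups and -0.887 without 2 pigs. ITGAE was the third gene with a negative r in the 13 pigs at an adjusted p of at most 0.05, with an r of -0.823. The sign of r did not always follow a member's own span. ITGAE (89002 bp) had an r of -0.866 in 16 pigs, PXN (10198 bp) of 0.705 and TNS2 (13818 bp) of 0.771. ILK (15704 bp) and ITGB1BP1 (16236 bp) are short and had a negative r. BCAR1 was less tied to the slope, at r = 0.721 and rho = 0.697 in 16 pigs (permutation p = 0.00156 and 0.00328, adjusted p = 0.00589 and 0.0138), and in the 13 pigs its r of 0.476 had an adjusted permutation p of 0.284. Within the LFC and HFC pigs r of BCAR1 was 0.697 and 0.755, and it was 0.583 without 2 pigs. ITGA5 had an r of 0.171 and a rho of 0.121 (permutation p = 0.527 and 0.657, adjusted p = 0.633 and 0.754). Of the members, 31.7% had an r of at least 0.7 with the slope in 16 pigs and 7.32% an r of at most -0.7, against 14.6% and 14.5% of all genes tested.

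**Figure D4:**
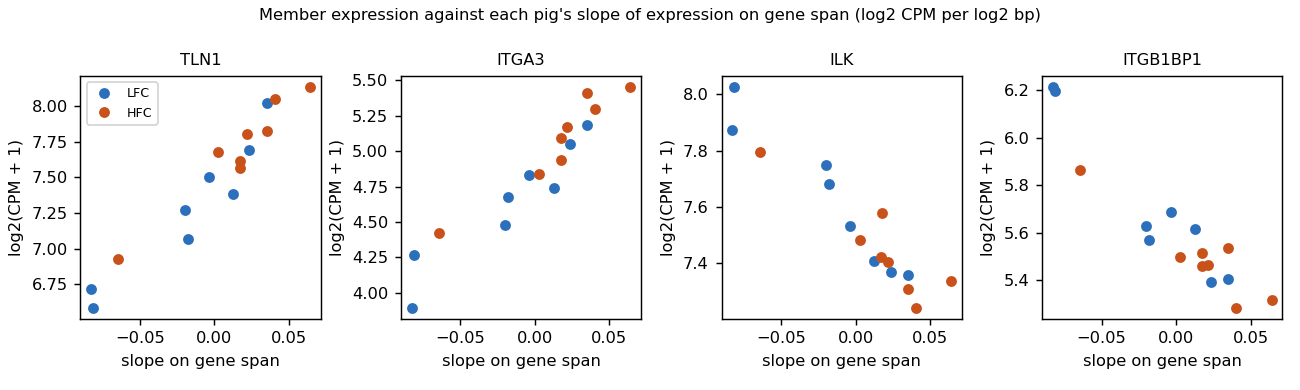
Expression of TLN1, ITGA3, ILK and ITGB1BP1 in each pig, as log2(CPM + 1), against the slope of expression on gene span in that pig (log2 CPM per log2 bp), with LFC pigs in blue and HFC pigs in orange. The 3 pigs at slopes below -0.06 are the lowest or nearly the lowest for TLN1 and ITGA3 and among the highest for ILK and ITGB1BP1, and the other 13 run in the same direction.

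When a smooth trend of counts on gene span was taken out of each library, 5 members were at the nominal level and higher in the HFC group, against 7.23% of the 10890 genes, and 0 were higher in the LFC group, against 5.09%. The log2 fold change was above 0 in 30 members, against 48.1% of the genes, with a median of 0.13 over the members. BCAR1, PXN, ITGA3, ITGA5 and TNS2 were the 5. This fit shifts a gene only by its own span, so genes near the median span of 29627 bp could hardly move in it. The log2 fold change of BCAR1 (35077 bp) was 0.518 against 0.516 before, and that of ITGA3 (36238 bp) was 0.437 against 0.433. Yet ITGA3 had an r of 0.951 with the slope. Those of PXN and TNS2, which have shorter spans, went up to 0.42 and 0.43. ITGAV had a log2 fold change of 0.15 with an unadjusted p of 0.108 and ITGA6 an unadjusted p of 0.0532 in this fit (edgeR). The fit thus cannot show the part of the slope in the differences of genes near the median span. In the other differences that part was not tested beyond this fit and the comparison without the 3 pigs.

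Reads were counted on annotation entries, and the entries of 7 members hold another whole protein-coding gene of the RefSeq annotation of the same assembly. The entry of ITGA2B (chr12:18776205-18877382) holds GPATCH8, and the RefSeq gene for ITGA2B is 16.4% of its span. That of ITGAX (chr3:17134864-17265533) holds ITGAD and reaches into ITGAM, both integrin alpha subunits of leukocytes. Its own RefSeq gene, listed there as a long noncoding RNA, is 17.3% of the span. The entry of ILK holds TAF10, a subunit of the transcription factor TFIID, and the RefSeq gene for ILK is 41.1% of its span. MAP4K1 and EIF3K lie in the entry of ACTN4, GSG2 in that of ITGAE and GPR17 in that of LIMS2. Which of these genes gave the counts cannot be told from the deposited totals, and libraries without strand also merge genes that overlap on opposite strands. Over the 34 members with no other whole gene in their entry, 28 were higher and 6 lower in the HFC group, and the median log2 fold change was 0.18. Higher at the nominal level were 7 of the 34, against 7.03% of all genes tested.

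Partner proteins were compared across pigs, since an integrin works only as a dimer and the adaptors only as complexes. Of 14 partner pairs listed, 13 could be computed, and 4 had an adjusted permutation p of at most 0.05 by Pearson's r. ITGAL and ITGB2, the subunits of the leukocyte integrin LFA-1, had an r of 0.813 and a rho of 0.809 (permutation p = 0.00017 and 0.0003, adjusted p = 0.000737 and 0.0013). Their r was 0.796 within the LFC group and 0.847 within the HFC group, and 0.754 without the 2 pigs that deviated most from the median of ITGAL. ITGAX and ITGB2 had an r of 0.834 and a rho of 0.859 (permutation p = 0.00011 and 8e-05, adjusted p = 0.000715 and 0.00104), but within groups r was 0.584 in the LFC group and 0.956 in the HFC group, and it was 0.728 without 2 pigs. Neither relation was smaller without LFC 4, LFC 6 and HFC 5, where r was 0.860 and 0.904. The entry counted as ITGAX also spans ITGAD and part of ITGAM, and the reference table names it ITGAM, so its relations may not be those of ITGAX.

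TLN1 and VCL, the talin and the vinculin that binds it, had an r of 0.840 and a rho of 0.803 (permutation p = 5e-05 and 0.00029, adjusted p = 0.00065 and 0.0013). Within groups their r was 0.935 in the LFC group and 0.544 in the HFC group, it was 0.656 without the 2 pigs that deviated most from the median of TLN1, and 0.709 in the 13 pigs. Both genes also followed the slope on gene span, with an r of 0.964 and 0.820 in 16 pigs and 0.915 and 0.694 in the 13. In 16 pigs ITGA6 and ITGB1 had an r of 0.810 and 0.802 with the slope, and ILK and PARVA of -0.943 and 0.639. The part of the slope in the relations of these pairs was not tested. ITGA6 and ITGB1, the subunits of a laminin receptor, had an r of 0.596 and a rho of 0.509 (permutation p = 0.0147 and 0.0468, adjusted p = 0.0479 and 0.122), within groups an r of 0.723 in the LFC and 0.433 in the HFC group, 0.533 without 2 pigs, and 0.181 in the 13 pigs, so that this relation rested on LFC 4, LFC 6 and HFC 5. ITGA6 with ITGB4, ITGA2B with ITGB3, ITGAV with ITGB5 or ITGB8, and ITGA5 or ITGA1 with ITGB1 had adjusted permutation p-values between 0.107 and 0.571. Within the complex, ILK and PARVA had an r of -0.535 and a rho of -0.462 (permutation p = 0.0331 and 0.0742, adjusted p = 0.0862 and 0.138), and an r of 0.0144 in the 13 pigs, while ILK with LIMS1 or PARVB had an r of -0.237 and -0.0919 (permutation p = 0.379 and 0.734, adjusted p = 0.493 and 0.734).

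**Figure D5:**
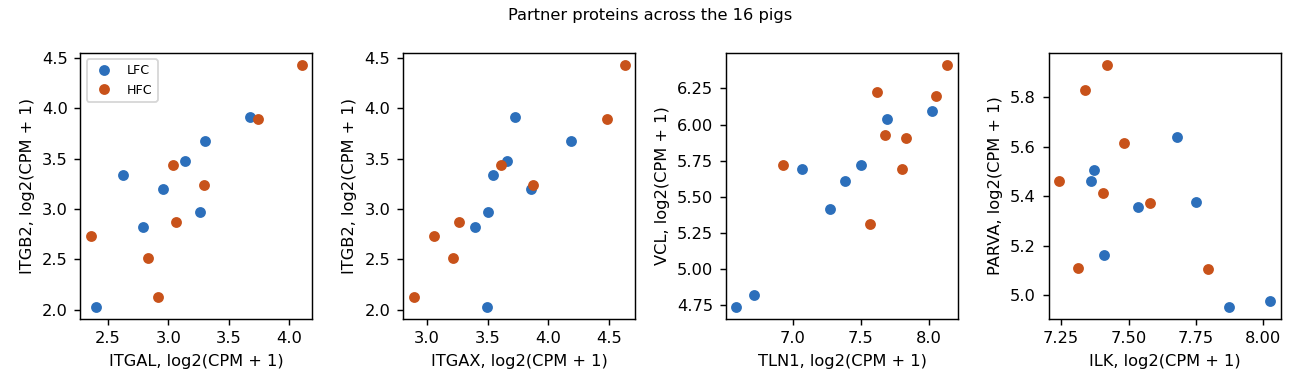
Expression of 4 partner pairs in the 16 pigs, as log2(CPM + 1) on both axes, with LFC pigs in blue and HFC pigs in orange. ITGB2 rises along ITGAL and ITGAX and VCL along TLN1 (r of 0.813, 0.834 and 0.840), while PARVA does not rise along ILK.

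Of the members known from leukocytes, 7 (ITGB2, ITGAL, ITGAX, ITGA4, ITGB7, FERMT3 and PARVG, but not ITGAE) were set beside the summed CPM of 18 leukocyte and macrophage markers, none of them a member. The sum ranged from 363.0 to 573.2 CPM (median 415.4) in the LFC group and from 199.3 to 661.2 CPM (median 362.3) in the HFC group, with an exact permutation p of 0.182. ITGB2 had an r of 0.743 and a rho of 0.721 with this sum (permutation p = 0.00104 and 0.00234, adjusted over 7 genes 0.00654 and 0.0164), with 0.571 in the LFC group, 0.897 in the HFC group and 0.819 without 2 pigs. ITGAX had an r of 0.729 and a rho of 0.671 (permutation p = 0.00187 and 0.00539, adjusted p = 0.00654 and 0.0189), with 0.179 and 0.852 in the LFC and HFC pigs and 0.589 without 2 pigs. For FERMT3, PARVG and ITGAL, r was 0.634, 0.591 and 0.530 (adjusted permutation p = 0.020, 0.0286 and 0.0478, and for rho 0.0219, 0.0557 and 0.0649), and without 2 pigs it was 0.588, 0.366 and 0.409. ITGB7 and ITGA4, of lymphocyte homing receptors, had an r of 0.224 and -0.202 (adjusted permutation p of 0.458 for both). HFC 6 had the highest ITGB2, ITGAL, ITGAX and FERMT3 of all pigs.

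Other genes of the pathway were counted beside the members. Of 74 listed adaptors and signalling proteins of adhesions 70 were tested, 45 were higher and 25 lower in the HFC group, and the median log2 fold change was 0.11. At the nominal level 4 of the 70 were higher and 2 lower, against 7.03% and 4.41% of all genes tested. ROCK2, a kinase that drives the contraction of actin and myosin, had means of 22.7 ± 2.16 CPM (SD, n = 8) for LFC and 28.9 ± 4.45 CPM (SD, n = 8) for HFC. Its log2 fold change of 0.35 ± 0.10 (SE) had an unadjusted p of 0.0027 in edgeR's test. NCK2, an adaptor that binds PINCH, had a log2 fold change of -0.19 with an unadjusted p of 0.02685 (edgeR).

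Of 46 listed matrix proteins that integrins bind 39 were tested, 31 were higher and 8 lower in the HFC group, and the median log2 fold change was 0.25. At the nominal level 4 of the 39 were higher and 0 lower, against 7.03% and 4.41% of all genes tested. COL1A2, a chain of type I collagen, had means of 104.0 ± 30.5 CPM (SD, n = 8) for LFC and 192.8 ± 45.4 CPM (SD, n = 8) for HFC, a log2 fold change of 0.89 ± 0.19 (SE). It was the gene of this list that DESeq2 called, with an adjusted p of 0.009475, and its adjusted p was 0.372 in edgeR (quasi-likelihood test, Benjamini-Hochberg adjustment). COL1A1, the other chain of type I collagen, had a log2 fold change of 0.36 ± 0.35 (SE) with an unadjusted p of 0.308 (edgeR). LAMA5, a laminin chain of basement membranes, and HSPG2, perlecan, had log2 fold changes of 0.63 and 0.85 with unadjusted p-values of 0.00742 and 0.0102 (edgeR).

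A further 14 genes of the same families had no symbol in the deposited table and were named by the reference table alone, so they are not members. Of these, 10 were tested, 8 higher and 2 lower in the HFC group, and the median log2 fold change was 0.36. Higher at the nominal level were 3 of the 10, against 7.03% of all genes tested. ITGA2, a collagen receptor subunit, was at 3.69 ± 1.17 CPM (SD, n = 8) and 6.28 ± 1.70 CPM (SD, n = 8) in the LFC and HFC pigs, which differed by 0.76 ± 0.21 (SE) on the log2 scale with an unadjusted p of 0.00217 in edgeR's test. FLNA, the widely expressed filamin, and TNS1, a tensin, had log2 fold changes of 0.52 and 0.58 with unadjusted p-values of 0.0152 and 0.0273 (edgeR).

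Markers of cell types were counted beside the members. Of the 12 markers of hormone-producing cells 8 were higher in the HFC group, and their sum had a median of 126921 CPM in the LFC and 158406 CPM in the HFC group, with an exact permutation p of 0.065. PRL, prolactin, had means of 30106 ± 13377 CPM (SD, n = 8) for LFC and 72531 ± 27492 CPM (SD, n = 8) for HFC, a log2 fold change of 1.27 ± 0.28 (SE), and it was called by DESeq2 with an adjusted p of 0.009475, against 0.372 in edgeR (quasi-likelihood test, Benjamini-Hochberg adjustment). TBX19, a factor of corticotrophs, and CGA, the alpha subunit shared by gonadotropins and thyrotropin, had log2 fold changes of -0.53 and -0.56 with unadjusted p-values of 0.0148 and 0.0475 (edgeR). Of 12 endothelial markers 9 were higher in the HFC group, 3 of them (VWF, FLT1 and CDH5) at the nominal level, against 7.03% of all genes tested. The sum of the endothelial markers ranged from 216.5 to 292.7 CPM in the LFC group and from 164.7 to 440.2 CPM in the HFC group, with an exact permutation p of 0.365. Of 18 leukocyte and macrophage markers 17 were lower in the HFC group, while 47.9% of all genes tested were higher. At the nominal level 0 of the 17 were lower, against 4.41% of all genes tested. The 4 platelet and red cell markers tested were all lower in the HFC group, and the sum of that list ranged from 281.1 to 1437 CPM in the LFC group and from 67.5 to 1055 CPM in the HFC group, with an exact permutation p of 0.0236. This sum was mostly HBB, a hemoglobin gene of red cells, with means of 581.8 CPM for LFC and 281.1 CPM for HFC. GP9, the platelet marker tested, had means of 3.96 and 3.36 CPM with an unadjusted p of 0.344 (edgeR). The sum therefore says little about platelets. Sums of markers of mural cells, fibroblasts, posterior lobe glia and folliculostellate cells had exact permutation p-values of 0.592, 0.234, 0.334 and 0.584. Their part in the differences of the members was not tested.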

How the data were processed

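The authors trimmed single-end reads with Flexbar, mapped the reads on the Ensembl genes of Sscrofa11.1 by RSEM with STAR (Bowtie 2 is also named), and deposited unnormalized counts of reads per gene and pig as whole numbers. The step that made these counts is not given in the sources used here. Their deposited comparison of the groups (group means, fold changes, p-values) was not used, only its 9550 gene symbols and its positions, and 5860 further names came from the reference table. The members and lists were chosen with earlier results of these data known.

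Counts were tested in R 4.3.3 with edgeR 4.0.16 (TMM scaling, filterByExpr by group, quasi-likelihood F test, Benjamini-Hochberg adjustment over all genes tested). Each SE follows from the F statistic. For single genes an exact two-sided permutation of log2(CPM + 1) was used, and correlations had 100000 two-sided permutations, or all within groups of 8, and those with the slope were adjusted over all genes tested. Since no exonic lengths were used, levels were not compared between genes. Named were members with an unadjusted p of at most 0.05 or called by DESeq2, in each role the member with the most CPM and the one with the largest fold change, and 3 genes of the smallest p in each other list. ITGAE, VCL, COL1A1, GP9, the leukocyte genes and hormone-producing cell markers, and genes inside annotation entries, were named after their values were seen. A few genes are not reported here by name or drawn, but they stay in the counts, medians and tests. Alternatives were DESeq2 1.42.0, limma 3.58.1 voom with quality weights, RLE and total library scaling, no filter and 2 other count filters, a replicate block, a gene span offset, both together, 1 surrogate variable (sva 3.50.0), a pseudocount of 0.1, genes of at least 10 CPM for the slope, and each pig left out. Leaving out 3 pigs together, or 7 members, was added after seeing the data. The remaining steps ran in Python 3.11.15 (pandas 2.3.3, scipy 1.17.1, numpy 2.4.6).

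Depth and the common coefficient of variation between pigs, 0.249, limit the precision. In simulated data with the same 13621 genes, edgeR recovered 83 of 100 genes changed 2-fold and 35 of 100 changed 1.5-fold in the HFC against LFC comparison, with 7 false calls, and DESeq2 recovered 91 and 52 with 28 false calls. Libraries of a group differed by more than sampling noise, with a chi-square per degree of freedom of at least 11.4 in each pair. Replicate numbers did not pair the pigs.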

Additional observations from a re-analysis of the deposited data

Results flagged for a closer look

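In each member and group, the gap of the highest or lowest pig to its nearest neighbour was divided by the range of the group. In 6 of 82 such groups this share was above the 95% critical value of Dixon's test, and chance alone flags about 1 group in 20. HFC 5 accounted for 3 of them. In the HFC pigs it was highest for ITGB1BP1, at 57.3 CPM with the next pig at 45.4 CPM (share 0.616), highest for ITGAE, at 23.3 CPM with the next at 13.6 CPM (share 0.612), and lowest for ACTN4, at 102.4 CPM with the next at 158.5 CPM (share 0.639). LFC 4 was highest among the LFC pigs for ITGAE, at 25.9 CPM with the next at 16.9 CPM (share 0.534). HFC 6 was highest among the HFC pigs for FERMT3, at 15.1 CPM with the next at 8.92 CPM (share 0.564), and HFC 3 was lowest for LIMS1, at 23.7 CPM with the next at 27.1 CPM (share 0.570).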

How the results depend on the processing

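No gene and no member was called under any alternative except DESeq2, which called 30 genes and 1 member. The median log2 fold change of the members lay between 0.08 and 0.25 under all alternatives. Members higher in the HFC pigs at the nominal level (p of 0.05 or less before adjustment) numbered between 3 and 11 when 1 pig was left out, with 3 without HFC 1, HFC 4 or HFC 7, 4 without LFC 4, LFC 5 or LFC 6 and 11 without LFC 2 or HFC 5. The share of all genes tested at that level and higher in the HFC pigs lay between 4.53% and 13.8% in the same fits. Members higher in the LFC pigs, 0 in the comparison as reported, numbered 0 to 3 when 1 pig was left out. There was 1 without LFC 2 or LFC 7, against 6.45% and 5.99% of all genes tested. There were 3 (ITGAE, ILK and ITGB1BP1) without HFC 5, against 11.8%. Such members numbered 1 with limma voom (9.01% of all genes), 1 with total library scaling (5.51%) and 1 without LFC 4, LFC 6 and HFC 5 (6.66%). PTK2 reversed to -0.045 with the gene span offset and to -0.041 with the replicate block and the offset together, and ITGB1 to -0.012 without the 3 pigs. The causes were not tested. With a replicate block, 5 members were higher in the HFC pigs and 0 in the LFC pigs at that level, against 6.66% and 3.65% of all genes tested. The numbers of the replicates did not pair the pigs, as 3 of 8 same-numbered pairs had a correlation over 0.1 (range -0.343 to 0.374) and 0 pigs correlated best with their own number. Of the partner pairs, 3 remained at an adjusted p of at most 0.05 with group means removed and 3 without the 3 pigs, against 4. In the simulated data edgeR missed most genes changed 1.5-fold and DESeq2 recovered 52 of 100 with 28 false calls, so members without a call may still differ, and the calls made by DESeq2 alone (BCAR1, COL1A2 and PRL among the genes named) rest on the tool with more false calls. For PRL, the paper also reports qPCR in the same pigs, and its discussion gives higher expression in the fatter pigs of this breed. The paper's statements differ, however. Its results group PRL with POMC, which was higher in the faster-growing pigs of this breed, and its abstract ties higher prolactin expression to lower feed conversion.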
